A study of Sander lucioperca with 12 samples.

Results

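The genes described here are neurod1, cbln12 and gabra6b, 3 genes known from cerebellar granule cells. They were chosen by name, with earlier results of these data known, as 3 of the 32963 named genes in the count table of pikeperch (Sander lucioperca) brains. They were followed across 12 whole-brain RNA-seq libraries in 4 groups, with attention to how far they moved together from fish to fish. The study compared 2 growth phenotypes of young-of-the-year pikeperch from Lipno Reservoir in the last week of August of consecutive years, with 1 library per fish and 3 fish per group. Piscivores of 2023, which the labels also call cannibals, and piscivores of 2022 were taken by seining in the littoral at night. Planktivores of 2023 and planktivores of 2022 were taken by trawling in the pelagic at night. The fish were wild and untreated, and their sex could not be told at dissection. Phenotype therefore cannot be told apart from habitat and gear, nor from the difference in body size that the study describes. RNA was enriched by its poly(A) tail. The 2022 and 2023 libraries carry different batch dates, so year and batch cannot be told apart.

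Granule cells are the small glutamatergic neurons that fill the granular layer of the cerebellum and send parallel fibres onto Purkinje cells. They arise from precursors that transcribe atoh1 genes, and as they leave the cell cycle they switch on neurod1, a basic helix-loop-helix transcription factor that mature granule cells keep. Cerebellins are secreted proteins of the C1q family that link neurexins on parallel fibres to the membrane of Purkinje cells, and in zebrafish cbln12 is transcribed in granule cells. The alpha 6 subunit of the GABA-A receptor, encoded here by gabra6b, is in mammals nearly restricted to granule cells, where it joins the delta subunit in receptors outside the synapse.

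In the genome build SLUC_FBN_1.2, neurod1 (gene ID 116037757) lay on the minus strand of chromosome 8 from 36647471 to 36651736, with 1795 exonic bases in 4 exon blocks. The gene cbln12 (116055113) lay on the minus strand of chromosome 9 from 40778678 to 40781913, with 2691 exonic bases in 5 blocks. The gene gabra6b (116052771) lay on the plus strand of chromosome 13 from 22531475 to 22566623, with 5619 exonic bases in 10 blocks. No annotated gene overlapped any of the 3, and the values below count unique reads within these exons.

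The libraries held between 15327406 and 33858794 counts on named genes. Ribosomal RNA genes took between 0.137% and 0.360% of them in 2023, against between 12.0% and 21.0% in 2022. All 12 libraries held transcripts of gad2, which encodes an enzyme of GABA synthesis, at between 138 and 251 CPM. CPM are counts scaled to a common library total after normalization by the trimmed mean of M-values (TMM). The libraries differed in transcripts of brain regions. The 11 telencephalic markers summed to between 128 and 231 CPM in piscivores of 2023, between 77.9 and 85.7 CPM in planktivores of 2023, between 39.3 and 202 CPM in piscivores of 2022 and between 58.1 and 132 CPM in planktivores of 2022. Pituitary markers reached 2591 CPM in piscivore 1 of 2023, 2353 CPM in piscivore 2 of 2023 and 574 CPM in planktivore 4 of 2023, and stood between 0.524 and 26.3 CPM in the other libraries. The 12 hox genes of hindbrain and spinal cord summed to 0.631 CPM in piscivore 3 of 2022, the lowest value. Their next lowest sum was 0.857 CPM in piscivore 1 of 2023, and their highest was 116 CPM in planktivore 4 of 2022. How far each dissection reached was not tested. The hox sum was also low in planktivore 2 of 2022 (1.88 CPM) and piscivore 1 of 2022 (1.90 CPM), and was 50.8 CPM in piscivore 2 of 2022. Piscivore 1 of 2023 and piscivore 3 of 2022 stood apart from the rest in cbln12, as shown next, and the comparisons are also given without them.

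The most variable of the 3 was cbln12. It stood at 5.73 CPM in piscivore 1, 396 CPM in piscivore 2 and 464 CPM in piscivore 4 of 2023, against 514, 569 and 643 CPM in planktivores 4, 5 and 6 of 2023. In 2022 it stood at 526, 131 and 5.36 CPM in piscivores 1, 2 and 3, against 369, 530 and 327 CPM in planktivores 2, 3 and 4. Both lowest libraries were piscivores, 1 of each year, and all 6 planktivores stood above 300 CPM. The low values rest on 214 and 102 counts, and their exact 95% Poisson intervals, which cover counting error only, ran from 4.99 to 6.55 CPM in piscivore 1 of 2023 and from 4.37 to 6.51 CPM in piscivore 3 of 2022. The highest library exceeded the lowest 120-fold. In 2023 all 3 piscivores lay below all 3 planktivores, which was also true of 10.3% of the 21386 genes tested, while in 2022 the groups overlapped.

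The gene of the transcription factor, neurod1, stood at 132, 474 and 623 CPM in piscivores 1, 2 and 4 of 2023, against 580, 674 and 583 CPM in planktivores 4, 5 and 6 of 2023. In 2022 it stood at 724, 208 and 61.7 CPM in piscivores 1, 2 and 3, against 378, 762 and 554 CPM in planktivores 2, 3 and 4. The same piscivore libraries were lowest as for cbln12, piscivore 1 of 2022 was among the highest of all, and the phenotypes overlapped in both years. From lowest to highest library neurod1 varied 12.3-fold.

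The receptor subunit gene gabra6b stood at 67.3, 129 and 194 CPM in piscivores 1, 2 and 4 of 2023, against 143, 200.4 and 258 CPM in planktivores 4, 5 and 6 of 2023. In 2022 it stood at 195, 55.2 and 25.3 CPM in piscivores 1, 2 and 3, against 121, 212 and 142 CPM in planktivores 2, 3 and 4. The phenotypes overlapped in both years, and the lowest libraries were piscivore 3 of 2022, piscivore 2 of 2022 and piscivore 1 of 2023. The highest library exceeded the lowest 10.2-fold. In bulk tissue, fewer granule cells, less of these transcripts per cell and a differing share from other cells cannot be told apart.

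**Figure D1:**
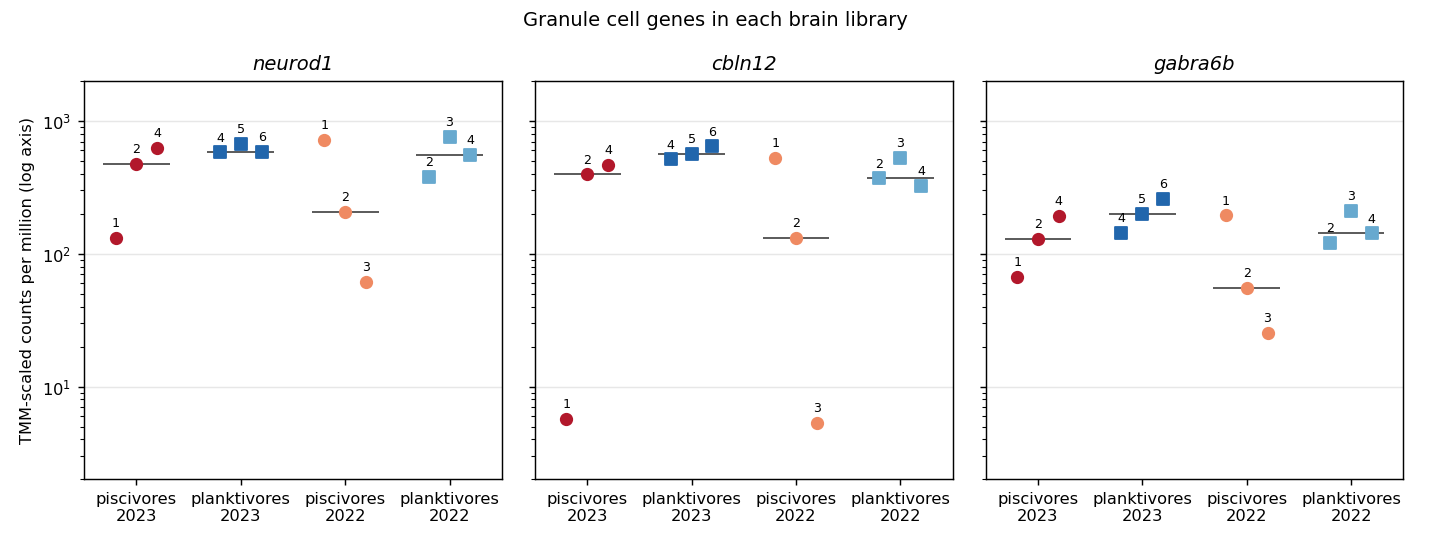
TMM-scaled CPM on a log axis of neurod1, cbln12 and gabra6b in each library, with groups on the horizontal axis, the replicate number above each point and a line at the median of the 3 libraries. Piscivores 1 of 2023 and 3 of 2022 lie at 5.73 and 5.36 CPM for cbln12, and all planktivores lie above 300 CPM for this gene.

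Per transcript length, as TPM (transcripts scaled by exonic length to a common total), neurod1 had a median level of 619 TPM over the 12 libraries, cbln12 299 TPM and gabra6b 49.9 TPM. The order neurod1, cbln12, gabra6b held in every library except piscivore 1 of 2023 and piscivore 3 of 2022, where cbln12 fell below gabra6b. By TPM, neurod1 ranked between 151 and 1754 among all named genes, cbln12 between 270 and 15169, and gabra6b between 1397 and 11163. These ranks place neurod1 among the more abundant transcripts of the pikeperch brain. The gene cbln12 ranked 15062 in piscivore 1 of 2023, 15169 in piscivore 3 of 2022 and 1308 in piscivore 2 of 2022, and higher in the other libraries.

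The proportions between the genes were steady in most libraries. For each 100 TPM of neurod1 there were 2.89 TPM of cbln12 in piscivore 1 of 2023 and 5.79 TPM in piscivore 3 of 2022, while the other libraries held between 39.3 TPM, in planktivore 4 of 2022, and 73.6 TPM, in planktivore 6 of 2023. Piscivore 2 of 2022, in which all 3 genes were low, held 42.0 TPM and so kept the proportion of the higher libraries. For gabra6b the range was narrower, with between 7.88 TPM, in planktivore 4 of 2023, and 16.3 TPM, in piscivore 1 of 2023, for each 100 TPM of neurod1. In piscivore 1 of 2023 and piscivore 3 of 2022, cbln12 was thus low relative to neurod1 as in no other library, which was not so of gabra6b.

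The spread of the 3 genes was wide for their level and lay mainly within piscivores. The standard deviation of log2 CPM over the 12 libraries was 1.13 for neurod1, 2.49 for cbln12 and 0.98 for gabra6b, against a median of 0.31 over 21789 genes. Among genes within 1 log2 unit of the same mean level, these values exceeded those of 99.3% of 549 genes for neurod1, 99.8% of 1271 genes for cbln12 and 99.2% of 2422 genes for gabra6b. Within groups, the pooled standard deviation of log2 CPM was 1.51 in piscivores and 0.37 in planktivores for neurod1, 3.48 in piscivores and 0.28 in planktivores for cbln12, and 1.18 in piscivores and 0.42 in planktivores for gabra6b. The median gene had 0.25 in piscivores and 0.25 in planktivores. In these genes planktivores thus lay closer to the median gene than piscivores did, and the difference in spread between phenotypes was not tested.

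The 3 genes moved together between libraries. Over 12 libraries, Pearson's r of log2 CPM was 0.94 between neurod1 and cbln12, 0.96 between neurod1 and gabra6b, and 0.87 between cbln12 and gabra6b, and Spearman's rho was 0.87, 0.92 and 0.96 in the same order of pairs. These are descriptions without a p-value, over libraries that share their fish, dissection and depth, and the genes were put together with earlier results of these data known. With the means of the 4 groups taken out, Pearson's r was 0.94, 0.95 and 0.85.

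The agreement held within each year. In 2023 (6 libraries), Pearson's r was 0.99 for neurod1 and cbln12, 0.90 for neurod1 and gabra6b, and 0.89 for cbln12 and gabra6b. In 2022 (6 libraries) it was 0.96, 0.99 and 0.94. Spearman's rho within a year lay between 0.71 and 1.0. Piscivore 1 of 2023 and piscivore 3 of 2022 were also the libraries farthest from the median of neurod1 and of cbln12, and without them Pearson's r over 10 libraries was 0.91, 0.92 and 0.95. These 10 libraries still held piscivore 2 of 2022, in which all 3 genes were low, and without it as well Pearson's r over 9 libraries was 0.63, 0.74 and 0.83. Within the 6 planktivores, where the range of values was narrow, it was 0.59, 0.69 and 0.83, against 0.94, 0.97 and 0.84 within the 6 piscivores.

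**Figure D2:**
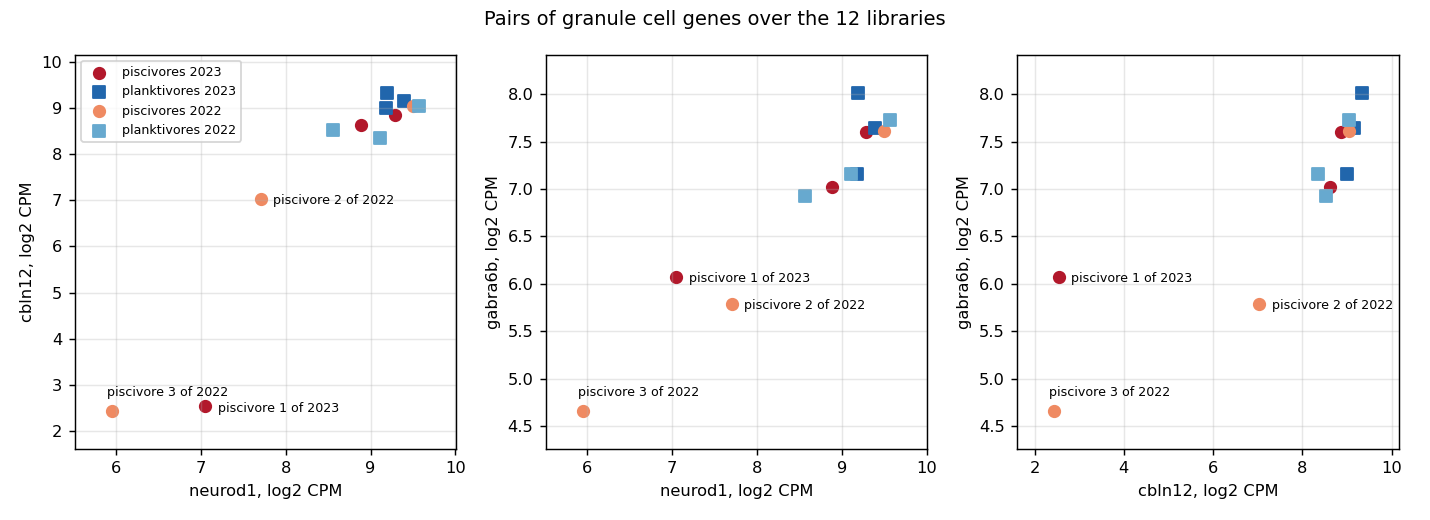
Log2 CPM of each pair of genes, with 1 point per library, circles for piscivores and squares for planktivores, and the 3 lowest piscivore libraries named. Pearson's r is 0.94, 0.96 and 0.87 from left to right, and the points of cbln12 in piscivore 1 of 2023 and piscivore 3 of 2022 lie far below the rest.

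The r of each pair was also ranked among all other genes over all 12 libraries, the low piscivores included. The 3 genes were put together with earlier results of these data known, so these ranks are descriptions and no support for the grouping. Of the 21788 other genes, gabra6b ranked 27 by its r with neurod1 and cbln12 ranked 62. By r with cbln12, neurod1 ranked 34 and gabra6b 157. By r with gabra6b, neurod1 ranked 20 and cbln12 224. The median r of all genes was 0.0018 with neurod1, 0.011 with cbln12 and -0.0064 with gabra6b.

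Next, each gene with a symbol was ranked by the mean of its r with the 3 genes. The 10 most alike were eps8l2, cacna2d4a, slc17a7a, zic1, hhipl2, nexn, fgf8a, march4, zic5 and unc5c, with a mean r between 0.95 and 0.97 over 12 libraries and between 0.87 and 0.95 over 10 libraries without piscivore 1 of 2023 and piscivore 3 of 2022. Among them, slc17a7a encodes the vesicular glutamate transporter VGLUT1, which loads glutamate at parallel fibre terminals in mammals. It stood at 15.9, 68.7 and 103 CPM in piscivores 1, 2 and 4 of 2023, against 74.8, 109 and 115 CPM in planktivores 4, 5 and 6 of 2023, and in 2022 at 155, 34.3 and 4.05 CPM in piscivores 1, 2 and 3, against 56.8, 132 and 84.6 CPM in planktivores 2, 3 and 4. The zinc finger factor gene zic1, active in the granule cell lineage of vertebrates, varied between 74.9 CPM in piscivore 3 of 2022 and 512 CPM in piscivore 1 of 2022. The growth factor gene fgf8a, known from the midbrain-hindbrain organizer of embryos, varied between 0.05 and 15.8 CPM, and eps8l2, which encodes an actin-binding protein, between 5.62 and 83.4 CPM. All 10 were lowest in piscivore 3 of 2022.

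At the other end, fam20ca, slc7a7, kcnk6, cfap70 and pdgfd ran opposite to the 3 genes, with a mean r between -0.89 and -0.85. The secretory kinase gene fam20ca varied between 30.8 and 41.3 CPM and the amino acid transporter gene slc7a7 between 9.96 and 24.1 CPM. The opposite relation of fam20ca rested on the lowest libraries, since its mean r was -0.32 without piscivore 1 of 2023 and piscivore 3 of 2022, while that of cfap70, a gene of cilia, was -0.88. Over all genes, 330 of 21786 (1.51%) had a mean r above 0.8 and 24 (0.110%) had one below -0.8. Without both libraries, 425 genes (1.95%) lay above 0.8.

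Many genes of the granule cell lineage followed the 3 genes. Of 29 listed genes, 21 were in the table and 20 passed the filter on low counts. Of these 20, 12 had a mean r above 0.8, with a list median of 0.88, against a median of 0.0023 over all genes. Without piscivore 1 of 2023 and piscivore 3 of 2022, 9 lay above 0.8 and the median was 0.74. Beside slc17a7a and zic1, the 12 held zic2a, zic4, pax6b, prox1a, etv1 and atoh1c, all of transcription factors, the cadherin gene fat2, the Rac regulator gene chn2, the NMDA receptor subunit gene grin2ca and gabrd. The cadherin gene fat2, restricted to granule cells in the mouse brain, stood at 14.5, 55.9 and 112 CPM in piscivores 1, 2 and 4 of 2023, against 54.2, 135 and 116 CPM in planktivores 4, 5 and 6 of 2023, and in 2022 at 189, 42.7 and 4.89 CPM in piscivores 1, 2 and 3, against 106, 247 and 161 CPM in planktivores 2, 3 and 4. Its likeness was weaker without both lowest libraries, with a mean r of 0.66 over 10 libraries, against 0.92 over 12. Other listed genes did not follow. The mean r was 0.20 for reln, which encodes the secreted guidance protein reelin, -0.10 for nfixb, a nuclear factor I gene, and -0.59 for cadps2, which encodes a protein of dense-core vesicle release. The precursor gene atoh1a stood between 0.509 and 1.66 CPM and had a mean r of 0.29.

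**Figure D3:**
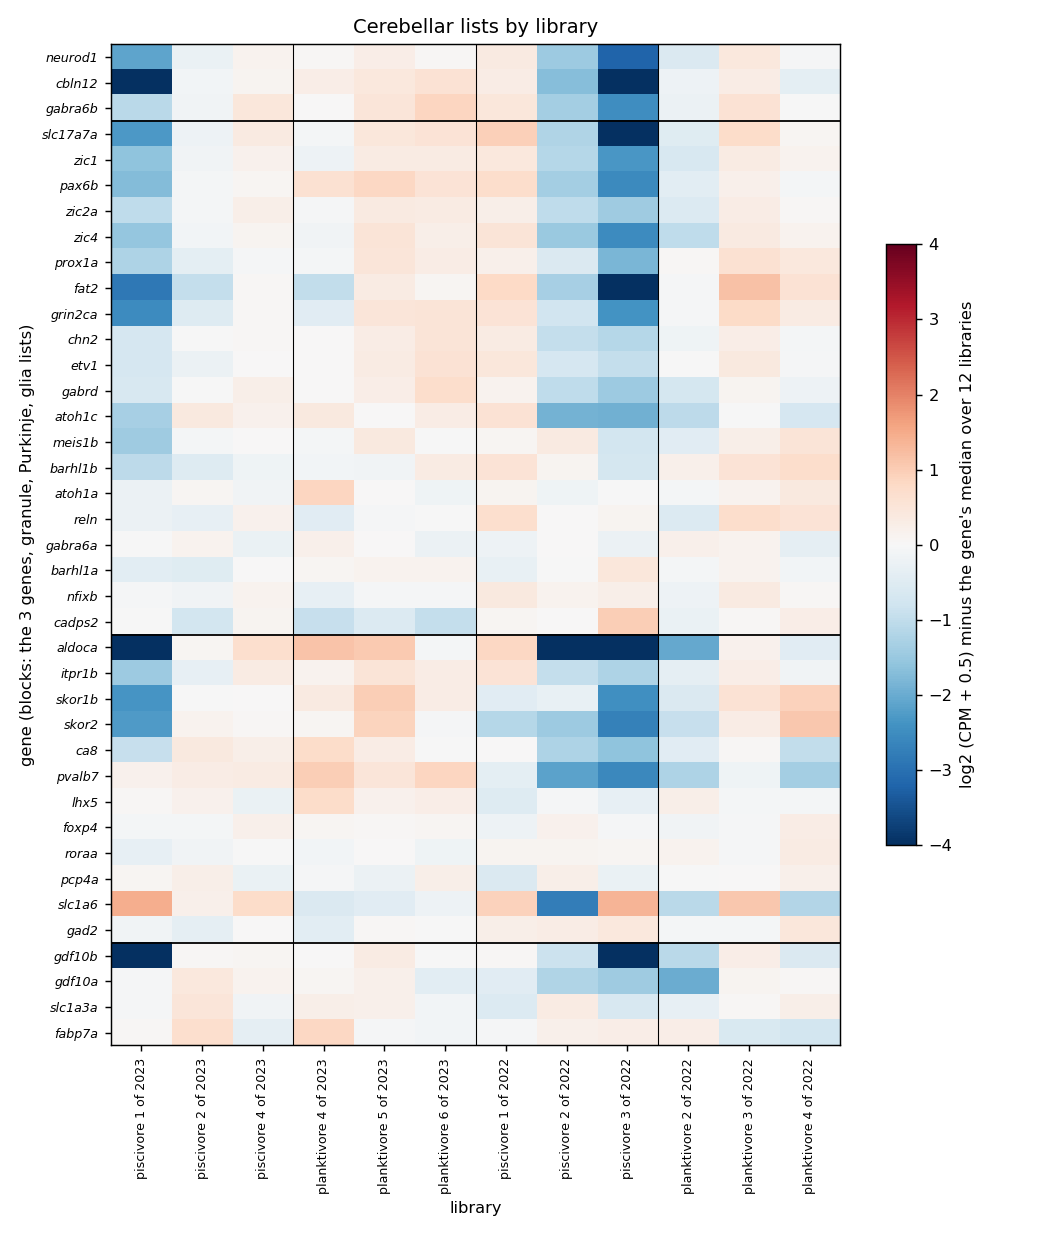
Log2 of CPM plus 0.5, relative to the median of each gene over the 12 libraries, with libraries as columns in the order of the groups and genes as rows in blocks for the 3 genes, the granule cell lineage, Purkinje cells and Bergmann and radial glia, sorted by mean r. Blue columns in piscivore 1 of 2023, piscivore 2 of 2022 and piscivore 3 of 2022 run through most of the upper granule rows, while the rows from atoh1a to cadps2 are paler.

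Over 12 libraries most relatives of gabra6b did not follow the 3 genes closely. Its paralog gabra6a stood between 3.10 and 4.85 CPM in all 12 libraries and had a mean r of 0.06 with the 3 genes, although whether reads were shared between the paralogs was not tested. Of 21 listed GABA-A receptor subunit genes, 15 were in the table and tested, and gabrd was the sole one of them with a mean r above 0.8 over 12 libraries, while over 10 libraries gabrd and gabrb4 lay above it. This gene for the delta subunit, the partner of alpha 6, stood at 72.2, 111 and 132 CPM in piscivores 1, 2 and 4 of 2023, against 113, 136 and 183 CPM in planktivores 4, 5 and 6 of 2023, and in 2022 at 123, 55.0 and 40.3 CPM in piscivores 1, 2 and 3, against 68.6, 120 and 96.8 CPM in planktivores 2, 3 and 4. Its lowest libraries were piscivore 3, piscivore 2 and planktivore 2 of 2022, and its mean r was 0.86 over 12 libraries and 0.88 over 10. The list median was 0.21 over 12 libraries and 0.55 over 10, against 0.0023 and -0.022 over all genes. The mean r of gabra5 was -0.32 over 12 and 0.64 over 10. That of gabrb4 was -0.21 over 12 and 0.85 over 10.

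The other measured cerebellins varied less than cbln12. Of 30 listed cerebellins and partners, 13 were in the table and 12 passed the filter. The gene cbln1, whose product is the granule cell cerebellin of mammals, stood between 33.7 and 53.6 CPM with a mean r of 0.12 over 12 libraries and 0.66 over 10, and cbln2b stood between 90.5 and 193 CPM with a mean r of 0.0011 over 12 and 0.29 over 10. The list median was 0.14 over 12 libraries and 0.58 over 10. Of the 12 genes, 2 had a mean r above 0.8 over 12 libraries and 0 had one over 10. Among the partners, the neurexin gene nrxn3a had a mean r of 0.86 over 12 libraries and 0.65 over the 10 libraries.

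Of 13 tested genes in the list of bHLH and related neuronal factors, tcf3b, a partner factor of NeuroD proteins, was the sole one with a mean r above 0.8 over 12 libraries, at 0.84, and had 0.79 over 10. Over 10 libraries the telencephalic paralogs neurod6a and neurod6b were the 2 genes above 0.8. For neurod6a the mean r was -0.22 over 12 libraries and 0.85 over 10, and for neurod6b it was 0.14 over 12 and 0.94 over 10. The zinc finger gene insm1a, active as neuronal precursors leave the cell cycle, had 0.75 over 12 and 0.72 over 10.

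**Figure D4:**
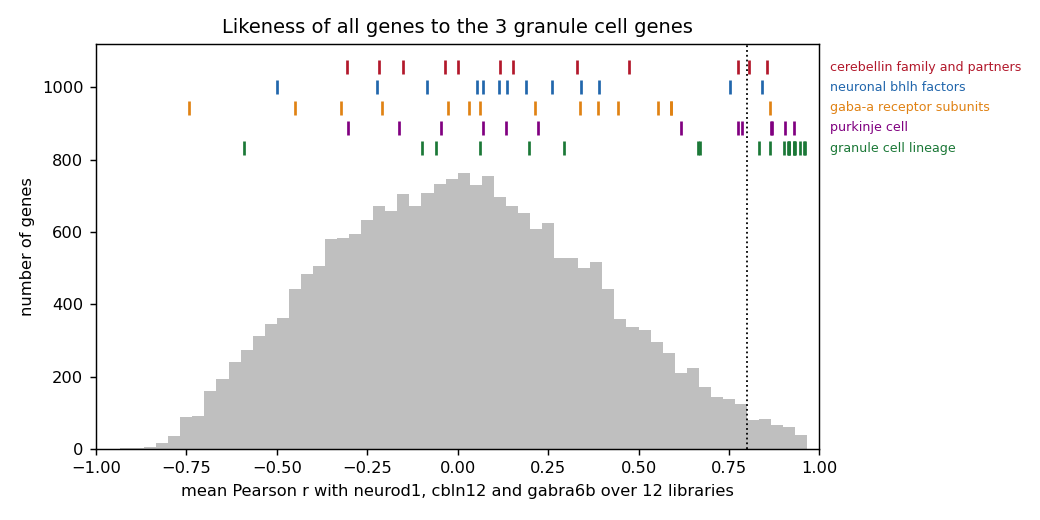
Histogram of the mean Pearson r of 21786 genes with neurod1, cbln12 and gabra6b over 12 libraries, with a tick for each gene of 5 lists above it and a dotted line at 0.8. Ticks of the granule cell lineage crowd beyond the line, where 330 genes (1.51%) lie.

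Markers of neighbouring cerebellar cells moved with the 3 genes in part. The median mean r of 13 Purkinje cell genes was 0.62 over 12 libraries and 0.54 over 10. Of the 13, 4 had a mean r above 0.8 over 12 libraries, namely aldoca, itpr1b, skor1b and skor2. Over 10 libraries 3 did, namely aldoca, itpr1b and slc1a6, while skor1b had 0.40 and skor2 0.54. The gene aldoca, for zebrin II, stood at 0.295, 82.0 and 124 CPM in piscivores 1, 2 and 4 of 2023, against 169, 158 and 72.1 CPM in planktivores 4, 5 and 6 of 2023, and in 2022 at 138, 3.03 and 0.420 CPM in piscivores 1, 2 and 3, against 18.3, 86.3 and 55.6 CPM in planktivores 2, 3 and 4. The Bergmann glia gene gdf10b was at 0.589 CPM in piscivore 1 of 2023 and 0.315 CPM in piscivore 3 of 2022, and at 13.0 CPM or above in the other libraries. In the same libraries the corepressor gene skor2 stood at 0.402 and 0.158 CPM. Of the 4 genes of Bergmann and radial glia, 1 had a mean r above 0.8. Their sum was not lowest in these fish, at 617 CPM in piscivore 1 of 2023 and 689 CPM in piscivore 3 of 2022. Over all libraries that sum ranged from 428 CPM in planktivore 4 of 2022 to 1060 CPM in planktivore 4 of 2023. The gene pvalb7, a parvalbumin gene of zebrafish Purkinje cells, was at 361 CPM in piscivore 1 of 2023 and 53.1 CPM in piscivore 3 of 2022, the lowest value of each year. The summed Purkinje list was also lowest of its year in both, at 993 CPM in piscivore 1 of 2023 and 780 CPM in piscivore 3 of 2022, and reached 1661 CPM in planktivore 4 of 2023. The part of Purkinje cells and glia in the values of the 3 genes was not tested.

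Over 12 libraries the median mean r of markers of other regions and cells was -0.22 over 11 telencephalic genes, -0.05 over 14 midbrain and isthmus genes, 0.40 over 9 hypothalamic genes, -0.11 over 8 pituitary genes, 0.31 over 10 tested hox genes, 0.06 over 5 photoreceptor and pineal genes, 0.35 over 5 muscle genes, 0.27 over 4 erythrocyte genes and 0.38 over 4 genes of Bergmann and radial glia. It changed sign without piscivore 1 of 2023 and piscivore 3 of 2022, to 0.59 for the telencephalon, 0.07 for the pituitary and -0.28 for the hox genes. Over the same 10 libraries it was 0.65 for the hypothalamus, 0.50 for the photoreceptor and pineal genes, -0.16 for midbrain and isthmus, 0.05 for muscle, and 0.12 for both the erythrocyte genes and Bergmann and radial glia. The pallial factor gene tbr1b was at 39.6 CPM in piscivore 1 of 2023 and 37.8 CPM in piscivore 3 of 2022, its highest values, and at 0.168 CPM in piscivore 2 of 2022, its lowest. The 3 libraries with low granule cell genes thus lay at opposite ends of the telencephalic range. The part of regional content in the levels of the 3 genes was not tested.

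Whether the phenotypes differed was tested first in 2023. In piscivores of 2023, neurod1 averaged 410 ± 252 CPM, against 613 ± 53.6 CPM in planktivores of 2023 (SD, n = 3 each). For cbln12 the means were 289 ± 247 CPM in piscivores and 575 ± 64.8 CPM in planktivores, and for gabra6b they were 130 ± 63.3 CPM in piscivores and 201 ± 57.6 CPM in planktivores. All means were lower in piscivores, but none of the 3 genes was called, that is, had an adjusted p under 0.05 together with a log2 fold change beyond 1 in either direction, as 0.168% of all genes tested were. In edgeR's quasi-likelihood test the log2 fold change of cbln12 was -0.98 (SE 1.30, adjusted p = 0.793), that of neurod1 was -0.56 (SE 0.49, adjusted p = 0.663) and that of gabra6b was -0.61 (SE 0.39, adjusted p = 0.546). Without piscivore 1 of 2023 the log2 fold changes shrank to -0.41 for cbln12, -0.15 for neurod1 and -0.30 for gabra6b, and without piscivore 4 of 2023 they were -1.50, -0.996 and -1.01 in the same order of genes. DESeq2's Wald test called none of the 3 either, in this or any later comparison. Over all genes it called 410 here, 149 between phenotypes in 2022 and 220 over both years. It called 92 for the interaction of phenotype and year, and between years 392 in piscivores and 619 in planktivores. The p-values above weigh a difference of means against the spread between fish, 3 per group, with a dispersion shared by both groups. For neurod1 and cbln12 the SD was larger in piscivores of 2023 than in planktivores of 2023.

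In 2022 the picture was alike. For neurod1 the means were 331 ± 348 CPM in piscivores of 2022 and 565 ± 193 CPM in planktivores of 2022 (SD, n = 3 each). For cbln12 they were 221 ± 272 CPM in piscivores and 409 ± 107 CPM in planktivores, and for gabra6b 91.8 ± 90.5 CPM in piscivores and 158 ± 47.2 CPM in planktivores. Among piscivores the SD exceeded the mean for neurod1 and cbln12 and came close to it for gabra6b. None of the 3 was called, against 0.0533% of genes tested. The log2 fold change by edgeR was -0.76 (SE 0.87, adjusted p = 0.908) for neurod1, -0.88 (SE 1.37, adjusted p = 0.931) for cbln12 and -0.78 (SE 0.75, adjusted p = 0.883) for gabra6b. These values hinged on single fish. Without piscivore 3 they were -0.28, -0.32 and -0.35, and without piscivore 1, the sole piscivore of 2022 with high levels, they were -2.06, -2.58 and -1.97, with adjusted p of 0.296, 0.568 and 0.175.

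Over both years, with year as a term, no member was called, against 0.298% of genes. The edgeR log2 fold change between piscivores and planktivores was -0.67 (SE 0.51, adjusted p = 0.579) for neurod1, -0.94 (SE 0.95, adjusted p = 0.692) for cbln12 and -0.71 (SE 0.43, adjusted p = 0.481) for gabra6b. Without piscivore 1 of 2023 and piscivore 3 of 2022 it was -0.22, -0.37 and -0.33. The interaction of phenotype and year was 0.19 (SE 1.06) for neurod1, -0.11 (SE 1.96) for cbln12 and 0.17 (SE 0.89) for gabra6b in log2 units, with adjusted p of 0.987, 0.996 and 0.987, against 0.0138% of genes called. With standard errors of this size, differences of several-fold could go uncalled at 3 fish per group.

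An exact permutation test compared mean log2 CPM with phenotypes exchanged within years (400 relabellings of all 12 libraries, two-sided, smallest possible p = 0.005). It gave similar answers on a scale that weighs low libraries more. The difference between piscivores and planktivores was -2.48 (exact p = 0.065) for cbln12, -1.11 (exact p = 0.11) for neurod1 and -0.98 (exact p = 0.085) for gabra6b, with no adjustment over genes. Leaving out libraries allows fewer relabellings, so p then moves in coarser steps. Without piscivore 1 of 2022 the exact p was 0.005 for cbln12, 0.015 for neurod1 and 0.01 for gabra6b. For cbln12 it was also 0.04 without piscivore 2 of 2023 and 0.03 without piscivore 4 of 2023, and for gabra6b 0.045 without piscivore 4 of 2023. Without piscivore 1 of 2023 and piscivore 3 of 2022 the differences were -0.51, -0.33 and -0.43, and the exact p was 0.21 for cbln12, 0.45 for neurod1 and 0.32 for gabra6b. With all 12 libraries none passed 0.05, and the direction was lower in piscivores in each of these settings.

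**Figure D5:**
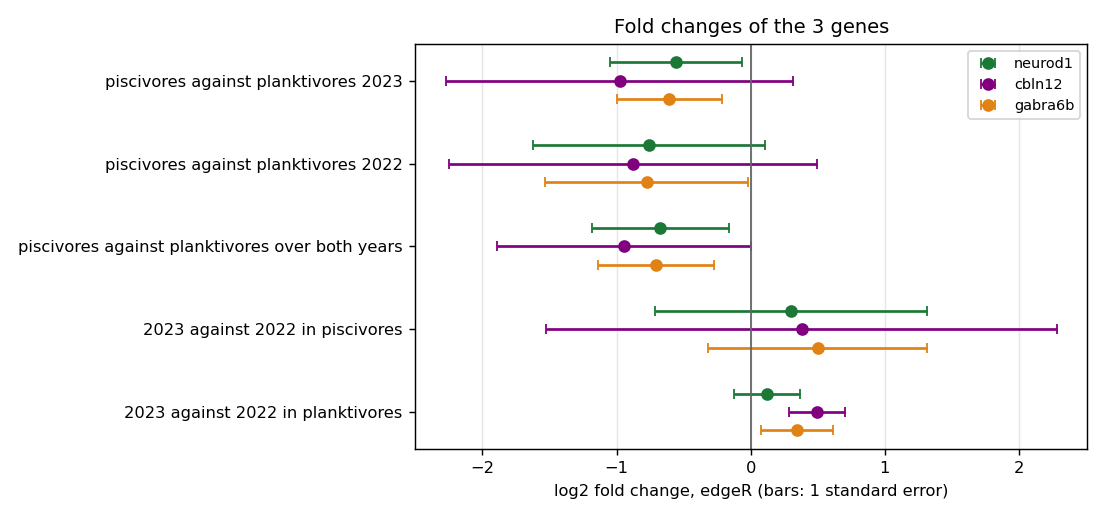
Log2 fold changes by edgeR of the 3 genes in 5 comparisons, with bars of 1 standard error, derived from the F statistic, on each side and a line at 0. All 9 values between phenotypes lie below 0, from -0.98 to -0.56, and the bars of cbln12 are the widest in every comparison except that within planktivores.

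Years were compared within each phenotype, with 2023 set against 2022. In piscivores the edgeR log2 fold change was 0.30 (SE 1.02, adjusted p = 0.899) for neurod1, 0.38 (SE 1.90, adjusted p = 0.935) for cbln12 and 0.50 (SE 0.82, adjusted p = 0.778) for gabra6b, and none was called, against 0.356% of genes. Without piscivore 3 of 2022 it was -0.19, -0.19 and 0.06, so the direction for neurod1 and cbln12 rested on that fish. It also turned without piscivore 4 of 2023, to -0.13 for neurod1 and -0.14 for cbln12. In planktivores it was 0.12 (SE 0.25, adjusted p = 0.824) for neurod1, 0.50 (SE 0.21, adjusted p = 0.244) for cbln12 and 0.34 (SE 0.27, adjusted p = 0.523) for gabra6b, and none was called, against 0.971% of genes. The unadjusted p of cbln12 in this edgeR fit was 0.0478. Here cbln12 averaged 575 ± 64.8 CPM in planktivores of 2023, against 409 ± 107 CPM in planktivores of 2022, and its groups overlapped, since planktivore 3 of 2022 at 530 CPM exceeded planktivore 4 of 2023 at 514 CPM. In the exact permutation test of years within phenotypes the difference was 0.43 (p = 0.52) for neurod1, 0.51 (p = 0.475) for cbln12 and 0.61 (p = 0.245) for gabra6b in log2 CPM.

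The listed granule cell genes were not called either, in comparisons where few genes of any kind were. Between phenotypes in 2023, edgeR called 0 of 20 tested genes in either direction, against 0.168% of all genes. An unadjusted p below 0.05 was found for 4 of them (all genes, 2926 of 21386, 13.7%). Among these 4, pax6b, etv1 and prox1a were lower in piscivores and cadps2 was higher, with a log2 fold change of 0.71. Of the 20, 17 had a fold change below 0, with a median log2 fold change of -0.54, against -0.0010 over all genes. In 2022, 0 of 19 were called (all genes, 0.0533%) and 0 had an unadjusted p below 0.05 (all genes, 7.25%). There 17 had a fold change below 0, with a median log2 fold change of -0.39. Over both years the median was -0.48 and 0 of 20 were called (all genes, 0.298%). There 4 had an unadjusted p below 0.05 (all genes, 14.9%). These 4 were barhl1b, etv1 and prox1a, lower in piscivores, and cadps2, higher with a log2 fold change of 0.56. Between years in piscivores the median was -0.012, with 0 of 19 called (all genes, 0.356%). In planktivores it was 0.16, with 0 of 20 called (all genes, 0.971%). Unadjusted p lay below 0.05 for 0 genes in piscivores and 5 in planktivores (all genes, 3547 of 20511 and 4264 of 21311). DESeq2 called 0 of these genes in each comparison, against between 92 and 619 of all genes. Since these genes share fish and dissection with the 3 genes, the direction that most of them had is no separate evidence.

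In the related lists, edgeR called 0 Purkinje cell genes, GABA-A receptor subunits, cerebellins and partners, or bHLH factors between phenotypes. It called 0.168% of all genes in 2023, 0.0533% in 2022 and 0.298% over both years. At these shares, 0 calls in lists this small say little about their genes. DESeq2 called 1 Purkinje gene in 2023, the glutamate transporter gene slc1a6, and 1 in 2022, skor2, against 410 and 149 of all genes. By edgeR, slc1a6 was higher in piscivores of 2023, with a log2 fold change of 1.34, and skor2 was lower in piscivores of 2022, at -2.52. Over both years, 3 of 13 Purkinje genes, 3 of 15 receptor subunits, 2 of 12 cerebellins and partners and 1 of 13 bHLH factors had an unadjusted p below 0.05, against 3252 of all 21789 genes (14.9%). Their median log2 fold change over both years was -0.37 for Purkinje genes, -0.10 for the receptor subunits, -0.07 for cerebellins and partners and -0.06 for bHLH factors, against -0.011 over all genes. Between years edgeR called 1 gene of these lists, insm1a, which was higher in planktivores of 2023 at 19.7, 24.1 and 23.2 CPM, against 7.48, 9.93 and 12.8 CPM in planktivores of 2022. Its log2 fold change by edgeR was 1.15 (SE 0.20, adjusted p = 0.0494), in a comparison where 0.971% of all genes were called. That call held under 5 of 13 alternatives and was lost without any 1 of the 6 planktivores, with adjusted p over the alternatives between 8.84e-05 and 0.247. In that comparison neurod1 was not called. DESeq2 called insm1a and the Purkinje gene pvalb7 there, against 619 of all genes, and no gene of these lists between years in piscivores. By edgeR the log2 fold change of pvalb7 in planktivores was 1.61. For the interaction of phenotype and year DESeq2 called cbln2b, against 92 of all genes, with a value by edgeR of 1.10.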

How the data were processed

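Gene counts and TPM were deposited by the authors, 1 column per fish. The study's methods name Trimmomatic for trimming, STAR (2.5.2 in the submitters' processing notes) for mapping to SLUC_FBN_1.2, featureCounts for unique exonic reads per gene and DESeq2 for testing. The 24 lines naming no gene held between 0.589% and 3.18% of counts per library and were left out.

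Counts were tested with edgeR 4.0.16 in R 4.3.3 (filterByExpr, TMM, robust quasi-likelihood F test) per pair of groups, and with a year term over all 12 libraries. The SE of an edgeR fold change was derived as its absolute log2 value divided by the square root of the F statistic. P-values were adjusted over all genes by the Benjamini-Hochberg method. Agreement used log2 CPM with a prior count of 2 on 21789 genes and scipy 1.17.1, and exact tests enumerated all relabellings. The fits and the ranking by likeness were tested on simulated data. The members and the gene lists were chosen with earlier results of these data known. Genes named are the 3 members, the 10 genes with a symbol most alike and the 5 least alike by mean r, and genes of the granule, cerebellin, bHLH, GABA-A and Purkinje lists, while gdf10b and tbr1b were named after their values were seen. Other lists held midbrain and isthmus, telencephalon, hypothalamus, pituitary, hox, photoreceptor and pineal, muscle, erythrocyte and glial markers. No replicates of a group agreed within sampling noise. Alternatives were DESeq2 1.42.0, its size factors, other filters on low counts, leaving out ribosomal RNA or the 20 most counted genes, 1 fit to all libraries, log2 TPM with pseudocounts of 1 and 0.1, a replicate block and leaving out each library. Leaving out piscivore 1 of 2023 and piscivore 3 of 2022 together, or these and piscivore 2 of 2022, and all alternatives for insm1a, were added after seeing the data. Some genes of the lists are counted but not reported here by name.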

Additional observations from a re-analysis of the deposited data

How the results depend on the processing

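No alternative fit called any of the 3 genes, and 392 of 423 alternative values kept their direction and side of the threshold, among them all that changed the scaling, the filter, the pseudocount or the tool. The 23 that turned direction and the 6 exact tests that passed 0.05 came from leaving out 1 library, or from the replicate block. Replicate numbers are shared by different fish. The block was fitted to phenotypes in 2022 and to years in piscivores, the comparisons in which 2 numbers are shared. Same-numbered deviations there correlated between -0.05 and 0.14. Whether same-numbered samples share more than a number cannot be told from these values. With the replicate block the log2 fold change of 2023 against 2022 in piscivores was -0.62 for neurod1, -2.40 for cbln12 and -0.14 for gabra6b, and that of piscivores against planktivores in 2022 was -2.23, -3.96 and -2.09, with no call. Leaving out 1 library at a time, the log2 fold change of 2023 against 2022 ranged from -0.19 to 1.60 for neurod1 and from -0.19 to 2.08 for cbln12 in piscivores, and from -0.12 to 0.40 for neurod1 in planktivores. The interaction ranged from -0.27 to 1.51 for neurod1, from -0.65 to 1.61 for cbln12 and from -0.25 to 1.37 for gabra6b. The exact phenotype difference ranged from -1.55 to -0.67 for neurod1, from -3.20 to -1.45 for cbln12 and from -1.38 to -0.64 for gabra6b, and the exact year difference from -0.011 to 0.88 for neurod1 and from -0.42 to 1.55 for cbln12. Pearson's r moved to 0.63 for neurod1 and cbln12 and 0.74 for neurod1 and gabra6b without piscivore 1 of 2023, piscivore 2 of 2022 and piscivore 3 of 2022. The cause was not tested. Each group holds 3 fish, and the lowest count of the 3 genes was 102.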
